A study of Rattus norvegicus with 16 samples.

Results

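Voltage-gated calcium and sodium channel subunits, HCN channels, the sodium leak channel gene Nalcn and the fibroblast growth factor homologues that bind sodium channels were described in brain tissue of adult rats given fentanyl (an opioid drug) or saline around birth. The genes were chosen by name: 30 of the 33294 genes in the deposited table of read counts. All 30 passed the filter on low counts, which kept 17856 genes. Poly(A) RNA had been sequenced from tissue that the labels give as central amygdala, a GABAergic output nucleus, of 6 fentanyl males, 2 fentanyl females, 6 saline males and 2 saline females. All 16 animals had been through sessions that the labels call IVSA without spelling it out, and were sampled as adults, 1 day after the final session. Strain, exact age and litter are not in the labels, so p-values reflect the spread among these rats, which may include littermates. In the labels fentanyl males carry library numbers 1 to 6, and saline males carry 1, 2 and 9 to 12. Fentanyl females carry 1 and 2, whereas saline females carry 10 and 11.

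Voltage-gated calcium channels open on depolarisation and let in the calcium that triggers transmitter release, shapes firing and signals to the nucleus. The pore is an alpha1 subunit, which cytosolic beta subunits and extracellular alpha2delta subunits bring to the membrane and tune. Voltage-gated sodium channels carry the rising phase of the action potential. Their alpha subunits are joined by single-pass beta subunits, and intracellular fibroblast growth factor homologues bind the alpha subunit's tail and modulate its inactivation. HCN channels open on hyperpolarisation and help to set resting potential and rhythmic firing, and Nalcn carries a background sodium leak.

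Total counts per library ranged from 12879701 to 22426428, and the 30 genes took 0.327% (saline male replicate 6) to 0.649% (fentanyl female replicate 2) of them. The smallest count of any of the 30 in a library was 20, for Hcn4 in fentanyl male replicate 2. CPM are read counts scaled to a corrected library size, or to the total count where the level of a single cell type marker is given. All 17 markers of the central amygdala had reads in every library. Summed, they came to 573 to 878 CPM in fentanyl libraries and 423 to 858 CPM in saline libraries. Prkcd was at 11.03 to 35.4 CPM and Sst at 41.9 to 219 CPM. Others fell lower, among them Crh at 0.511 to 17.2 CPM, Dlk1 at 0.713 to 42.4 CPM and Gpr101 at 0.842 to 45.8 CPM. All 20 markers of striatal spiny neurons also had reads in every library. Their summed level was 7956 to 17336 CPM in fentanyl libraries and 3561 to 13862 CPM in saline libraries. Isl1 is on both lists. Within the saline males the striatal sum was 11033 and 13862 CPM in numbers 1 and 2 and 3561 to 6204 CPM in numbers 9 to 12. The sum of 16 myelin markers was 8898 to 37168 CPM in fentanyl libraries and 8087 to 36482 CPM in saline libraries. Within the saline males it was 8087 and 10865 CPM in numbers 1 and 2 and 12715 to 36482 CPM in numbers 9 to 12. In bulk tissue, fewer cells of a type and less RNA per cell cannot be told apart.

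Promoter sequences are shown for 3 of the channel genes: Cacnb3, a calcium channel beta subunit that had the smallest p for exposure, Scn4b, a sodium channel beta subunit that varied most among libraries, and Cacna2d2, an alpha2delta subunit that was lower in saline males 1 and 2. They are from RefSeq, 250 bases before to 50 after the gene's start in that annotation, 5′ to 3′, with GC boxes in capitals. In Scn4b and Cacna2d2 the last 50 bases open with ATG, so that start may be of the coding sequence and not of transcription.
Cacnb3 promoter, chr7:131666301-131666600, GRCr8, plus strand: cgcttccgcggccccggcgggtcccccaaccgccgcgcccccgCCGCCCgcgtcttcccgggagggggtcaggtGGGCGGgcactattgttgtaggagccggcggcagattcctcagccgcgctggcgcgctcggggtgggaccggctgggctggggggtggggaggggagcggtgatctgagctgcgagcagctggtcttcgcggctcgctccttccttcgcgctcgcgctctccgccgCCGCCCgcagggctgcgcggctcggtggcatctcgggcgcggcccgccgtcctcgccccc
Scn4b promoter, chr8:54343623-54343922, GRCr8, plus strand: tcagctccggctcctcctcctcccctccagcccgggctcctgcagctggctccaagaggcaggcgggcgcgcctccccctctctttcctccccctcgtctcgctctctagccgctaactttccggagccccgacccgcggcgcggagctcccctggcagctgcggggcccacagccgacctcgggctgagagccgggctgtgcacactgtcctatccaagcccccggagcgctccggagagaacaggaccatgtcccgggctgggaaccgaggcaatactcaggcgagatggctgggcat
Cacna2d2 promoter, chr8:116950856-116951155, GRCr8, plus strand: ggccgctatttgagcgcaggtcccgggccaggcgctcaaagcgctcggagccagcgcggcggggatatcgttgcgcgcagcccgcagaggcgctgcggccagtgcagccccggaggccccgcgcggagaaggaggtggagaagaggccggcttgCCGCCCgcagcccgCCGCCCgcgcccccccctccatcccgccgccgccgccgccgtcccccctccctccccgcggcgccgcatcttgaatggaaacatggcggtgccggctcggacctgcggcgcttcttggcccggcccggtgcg
A GC box here is GGGCGG on either strand, a motif that Sp-family factors bind. Cacnb3 held 3, Scn4b none and Cacna2d2 2. A promoter was given for 21 of the 30 channel genes, and 11 of the 21 held a GC box (52.4%), against 34.9% of 27457 promoters of the same length. The median GC content was 70.0% over the 21 and 52.3% over all promoters. CCAAT, on either strand like the motifs that follow, was found in 4 of the 21, against 37.7% of all, and the E-box CAGCTG in 4, against 15.1% of all. TATAAA, the cAMP response element TGACGTCA and the AP-1 element TGACTCA were in none of the 21, against 14.3%, 1.91% and 4.53% of all promoters. A match is a description of the sequence and no evidence of binding. Whether the annotated starts are those of transcription was not checked, so some of these stretches may hold untranslated leader and coding bases.

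The extremes of many channel genes fell in a few libraries. Of the 30, 16 had their lowest level in saline male replicate 6 and 7 in fentanyl male replicate 2. The highest level lay in fentanyl female replicate 2 for 8 genes and in saline male replicate 2 for another 8. Averaged over the 30 genes, the level was 6.77 ± 0.17 log2 CPM in fentanyl libraries and 6.64 ± 0.23 log2 CPM in saline libraries (SD, n = 8 each). The average of 12 pan-neuronal markers was 8.55 ± 0.083 log2 CPM in fentanyl libraries and 8.47 ± 0.12 log2 CPM in saline libraries.

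**Figure D1:**
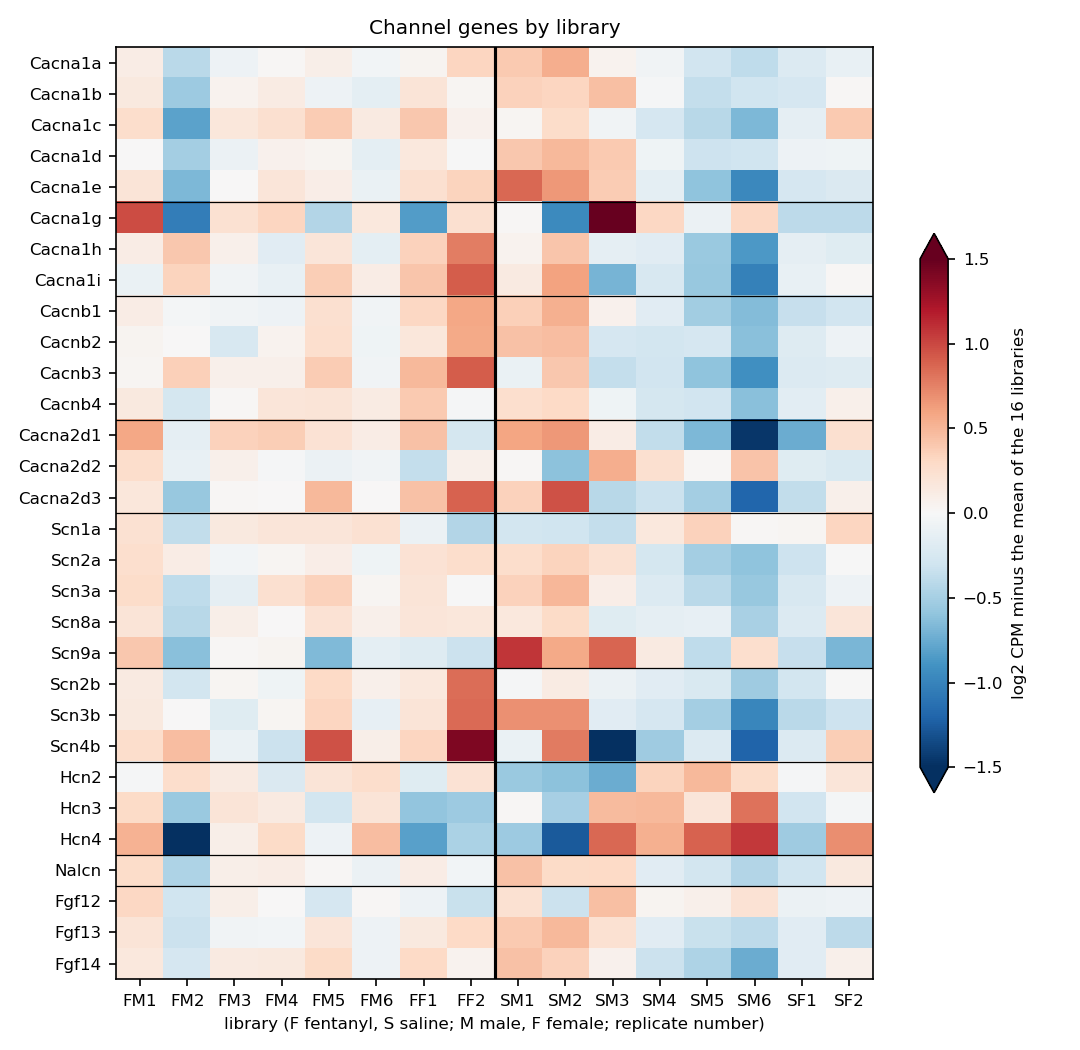
Level of each of the 30 channel genes (rows, grouped by role) in each of the 16 libraries (columns, fentanyl left and saline right), as log2 CPM minus the gene's mean over the libraries. Of the 30 genes, 16 had their lowest level in saline male replicate 6 and 7 in fentanyl male replicate 2, and 8 each had their highest in fentanyl female replicate 2 and saline male replicate 2.

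The spread of single genes across libraries differed widely. Scn8a, the sodium channel of the axon initial segment and nodes, and Scn1a and Fgf12 varied least, with a highest level 1.71 to 1.72 times the lowest. Scn4b, which is abundant in striatal neurons, varied most, with 1305 CPM in fentanyl female replicate 2 and 127 CPM in saline male replicate 3, a ratio of 10.3. Hcn4, an HCN channel with slow kinetics, spanned a ratio of 6.80 and Cacna1g, a low-threshold T-type calcium channel, one of 6.08. By the SD of log2 CPM over the 16 libraries, Scn4b stood at percentile 96.2 of all genes tested and Fgf12 at percentile 36.3.

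The comparison of the 8 fentanyl with the 8 saline libraries asks which transcripts differed in adulthood by perinatal exposure. With sex as a term, none of the 30 channel genes passed edgeR's quasi-likelihood F-test at an adjusted p under 0.05, against 0.0784% of all genes tested. At an unadjusted p under 0.05 there were 3 of 30, against 7.27% of all genes. Fold changes lay above 0 for 19 of 30, against 47.7% of all genes, with a median log2 fold change of 0.12 over the 30 and -0.0094 over all genes. The median over the 30 was 0.070 without saline male replicate 6 and 0.19 without saline male replicate 2. Each of the 30 had overlapping fentanyl and saline libraries; of all genes, 0.101% had no overlap.

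**Figure D2:**
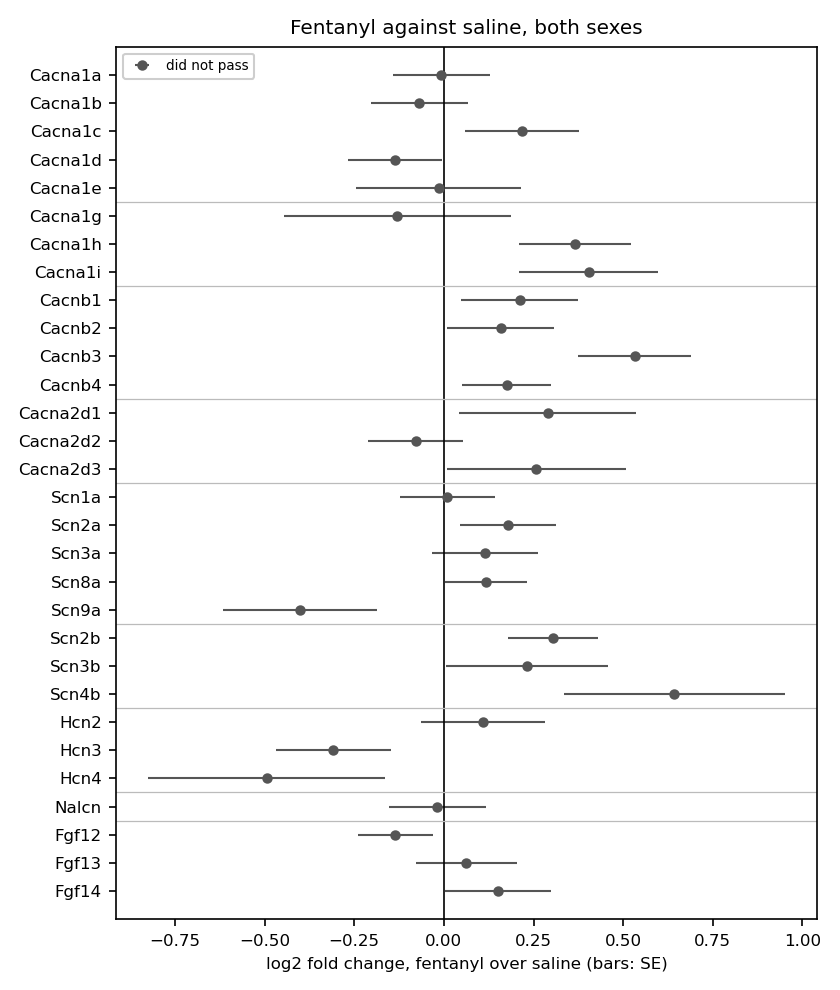
Log2 fold change of each channel gene, fentanyl over saline with sex as a term (points; bars are SE; 8 libraries each). None passed at an adjusted p under 0.05, and the values run from -0.49 for Hcn4 to 0.64 for Scn4b.

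Among the calcium channel genes, the 4 beta subunits all had fold changes above 0, with a median of 0.19, and Cacnb3 had the smallest p of the 30. Cacnb3 was 154 CPM at the lowest, 186 CPM at the median and 299 CPM at the highest in fentanyl libraries, against 84.4, 134 and 211 CPM in saline libraries. The groups overlapped: saline male replicate 2, the highest saline library, lay above 6 of the fentanyl libraries. The log2 fold change of Cacnb3 was 0.53 ± 0.16 (SE; adjusted p = 0.399 by edgeR). Without saline male replicate 2 it was 0.67 and passed (adjusted p = 0.0351 by edgeR), against 0.118% of all genes called higher in that fit. Over all alternatives its adjusted p ranged from 0.00384 to 0.999. Cacnb1, Cacnb2 and Cacnb4, the other beta subunits, did not pass. Cacnb1 averaged 177 ± 30.5 CPM in fentanyl libraries and 152 ± 45.9 CPM in saline libraries, Cacnb2 83.5 ± 14.7 CPM in fentanyl libraries and 74.4 ± 20.3 CPM in saline libraries, and Cacnb4 186 ± 23.9 CPM in fentanyl libraries and 165 ± 34.2 CPM in saline libraries (SD, n = 8 each).

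The low-threshold T-type pores let neurons fire in bursts, and 2 of the 3, Cacna1h and Cacna1i, were among the 5 channel genes with the smallest p. Cacna1h was 117 CPM at the lowest, 146 CPM at the median and 224 CPM at the highest in fentanyl libraries, against 72.4, 118 and 175 CPM in saline libraries (log2 fold change 0.37 ± 0.16, adjusted p = 0.652 by edgeR). Cacna1i was 183, 232 and 372 CPM in fentanyl libraries, against 98.3, 176 and 301 CPM in saline libraries (0.40 ± 0.19, adjusted p = 0.690 by edgeR). In both genes the ranges overlapped, and saline males 1 and 2 were the highest saline libraries. Cacna1g, the remaining T-type gene, averaged 25.4 ± 11.4 CPM in fentanyl libraries and 28.3 ± 18.3 CPM in saline libraries (SD, n = 8 each).

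Of the 5 high-threshold pores, 1 had a fold change above 0 and none passed. Cacna1a, the P/Q-type channel of presynaptic terminals, averaged 180.0 ± 25.0 CPM in fentanyl libraries and 181 ± 43.3 CPM in saline libraries. Cacna1b, the N-type channel, which opioid receptors inhibit through G proteins, averaged 121 ± 18.1 CPM in fentanyl libraries and 127 ± 28.1 CPM in saline libraries. Cacna1e, the R-type channel, averaged 421 ± 79.2 CPM in fentanyl libraries and 426 ± 184 CPM in saline libraries. The L-type genes couple activity to transcription. Of these, Cacna1c averaged 57.3 ± 12.2 CPM in fentanyl libraries and 49.4 ± 11.8 CPM in saline libraries, and Cacna1d averaged 121 ± 15.5 CPM in fentanyl libraries and 133 ± 30.2 CPM in saline libraries (SD, n = 8 each).

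The alpha2delta subunits carry calcium channels to the cell surface, and gabapentin binds the products of Cacna2d1 and Cacna2d2. Cacna2d1 averaged 50.0 ± 9.45 CPM in fentanyl libraries and 40.9 ± 18.8 CPM in saline libraries. Cacna2d2 averaged 188 ± 23.2 CPM in fentanyl libraries and 199.7 ± 50.8 CPM in saline libraries, and Cacna2d3 159 ± 47.3 CPM in fentanyl libraries and 130.1 ± 62.3 CPM in saline libraries (SD, n = 8 each). None passed, and in each the SD was larger among saline libraries.

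In the sodium channel family the beta subunits, adhesion molecules that modulate gating, all had fold changes above 0 and did not pass. Scn2b was 308 CPM at the lowest, 402 CPM at the median and 670.3 CPM at the highest in fentanyl libraries, against 258, 342 and 406 CPM in saline libraries (log2 fold change 0.31 ± 0.13, adjusted p = 0.636 by edgeR). The highest value was that of fentanyl female replicate 2, and without that library the log2 fold change was 0.20. Scn4b was 396, 608 and 1305 CPM in fentanyl libraries, against 127, 429.9 and 854 CPM in saline libraries (0.64 ± 0.31, adjusted p = 0.690 by edgeR). With the striatal and myelin marker means as covariates the log2 fold change of Scn4b was -0.12. Scn3b averaged 278 ± 71.3 CPM in fentanyl libraries and 235 ± 101 CPM in saline libraries (SD, n = 8 each). Scn2b and Scn4b, both on chromosome 8, are neighbours among protein-coding genes in RefSeq's table for assembly GRCr8.

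The sodium channel pores did not pass either. Scn1a, which is prominent in fast-spiking interneurons, averaged 166 ± 29.2 CPM in fentanyl libraries and 165 ± 31.6 CPM in saline libraries. Scn2a averaged 254 ± 23.0 CPM in fentanyl libraries and 225 ± 55.9 CPM in saline libraries, and Scn8a 294 ± 37.3 CPM in fentanyl libraries and 271 ± 47.3 CPM in saline libraries. Scn3a, a form that is high in the developing brain, averaged 75.1 ± 11.9 CPM in fentanyl libraries and 69.4 ± 18.1 CPM in saline libraries (SD, n = 8 each). Scn9a, known best from pain-sensing neurons, was 5.81 CPM at the lowest, 8.18 CPM at the median and 12.2 CPM at the highest in fentanyl libraries, against 5.71, 10.6 and 19.3 CPM in saline libraries (log2 fold change -0.40 ± 0.22, adjusted p = 0.735 by edgeR). Its 3 highest values were those of saline male replicates 1, 2 and 3.

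Among the HCN channels, which carry the hyperpolarisation-activated current, Hcn3 and Hcn4 had fold changes below 0. Hcn3 was 14.4 CPM at the lowest, 21.0 CPM at the median and 26.6 CPM at the highest in fentanyl libraries, against 15.4, 23.3 and 38.2 CPM in saline libraries (log2 fold change -0.31 ± 0.16, adjusted p = 0.733 by edgeR). Hcn4 was 1.44, 4.74 and 6.73 CPM in fentanyl libraries, against 1.97, 7.199 and 9.78 CPM in saline libraries (-0.49 ± 0.33, adjusted p = 0.791 by edgeR). For Hcn3 the saline libraries above every fentanyl library were males of numbers 9 to 12, and for Hcn4 they were those males and saline female replicate 2. With the striatal and myelin means as covariates the values were 0.087 for Hcn3 and 0.26 for Hcn4. Hcn2 averaged 170.2 ± 22.2 CPM in fentanyl libraries and 158 ± 49.8 CPM in saline libraries (SD, n = 8 each).

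Nalcn averaged 131 ± 18.3 CPM in fentanyl libraries and 133 ± 30.5 CPM in saline libraries. Of the fibroblast growth factor homologues, Fgf12 averaged 108 ± 16.7 CPM in fentanyl libraries and 119 ± 19.4 CPM in saline libraries. Fgf13 averaged 83.5 ± 11.1 CPM in fentanyl libraries and 80.2 ± 20.8 CPM in saline libraries, and Fgf14 43.7 ± 5.37 CPM in fentanyl libraries and 39.3 ± 10.7 CPM in saline libraries (SD, n = 8 each). None of these 4 genes passed.

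**Figure D3:**
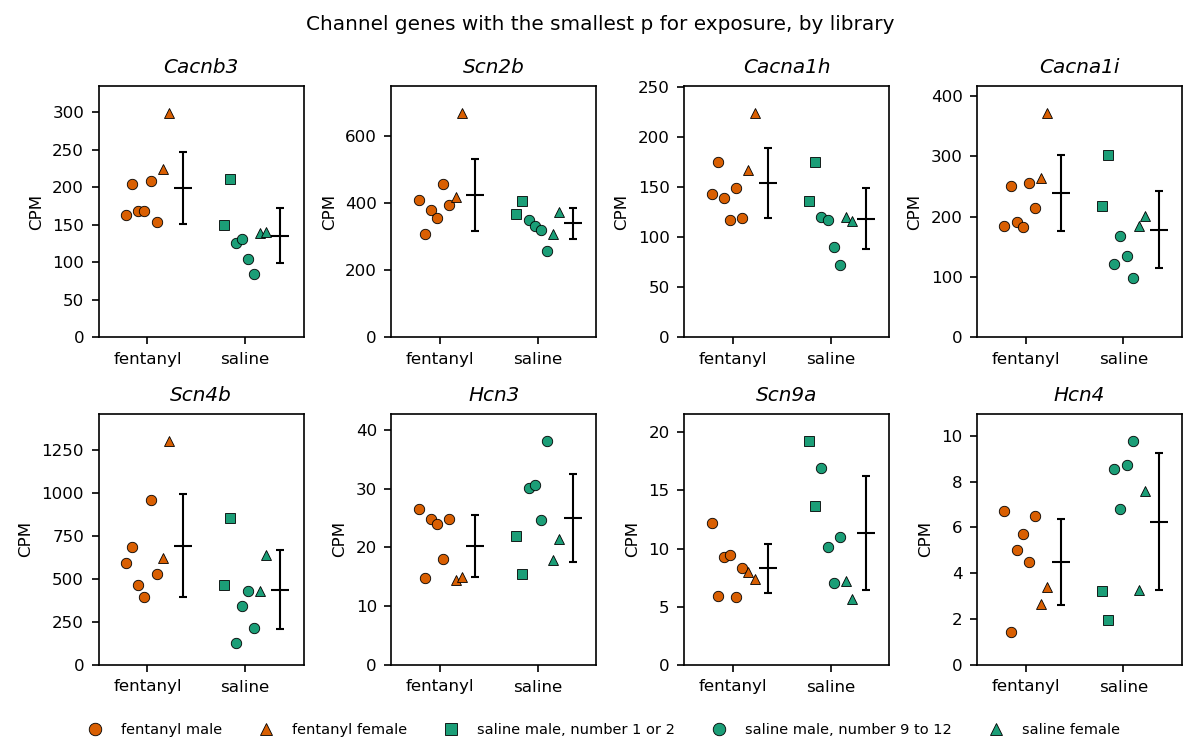
CPM of the 8 channel genes with the smallest p for exposure, 1 point per library (fentanyl left, saline right; males, females and saline males of numbers 1 and 2 have their own symbols), with the mean and SD of each exposure. The groups overlap for each gene, and for Cacnb3, Cacna1h and Cacna1i saline male replicate 2 is the highest saline library.

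The calls changed with the saline libraries and with the method. Without saline males 1 and 2, 8 channel genes were higher and 1 was lower after fentanyl by edgeR, against 4.23% and 2.67% of all genes. The higher ones were Cacna1h, Cacna1i, Cacnb1, Cacnb2, Cacnb3, Cacna2d3, Scn3b and Scn4b, and the lower one was Hcn3. Without saline males 9 to 12 none passed and the median over the 30 was -0.037. DESeq2 called none of the 30. Limma voom with sample quality weights called 9 higher, against 3.81% of all genes, and a fit with 3 surrogate variables called only Cacnb3, higher, against 1.38% of all genes. Of the striatal markers 20 of 20 had a fold change above 0 (median 0.46), and of the myelin markers 1 of 16 (median -0.20). The same count was 3 of 13 for interneuron and pallidal markers (median -0.28), 1 of 8 for oligodendrocyte precursors (median -0.18), 0 of 11 for astrocytes (median -0.18) and 0 of 11 for microglia (median -0.23). Central amygdala markers gave 9 of 17 (median 0.033) and pan-neuronal markers 8 of 12 (median 0.054). Cortical and basolateral markers gave 6 of 11 tested (median 0.015), and endothelial and mural ones 6 of 11 (median 0.015). Thalamic and hypothalamic markers gave 3 of 6 tested (median -0.13). No marker on any of the 11 cell type lists passed for exposure. With the striatal and myelin means as covariates no channel gene passed and the median was 0.031. The part of tissue make-up in these differences was not tested beyond these values.

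Within a family, a gene's share of the family's counts does not depend on how libraries are scaled. Cacnb3 held 30.5 ± 3.49% of the counts of the 4 calcium channel beta subunits in fentanyl libraries and 25.6 ± 2.12% in saline libraries (SD, n = 8 each). Its share ran over 26.9% to 36.3% in fentanyl libraries and 22.4% to 28.5% in saline libraries. In saline males 1 and 2 it averaged 25.0%, from values of 22.4% and 27.7%. In saline males 9 to 12 it averaged 25.0%, from values of 23.9% to 27.1%. Among the 8 alpha1 subunits, Cacna1i held 18.2 ± 3.80% in fentanyl libraries and 14.4 ± 2.96% in saline libraries, and Cacna1d 9.18 ± 0.816% in fentanyl libraries and 10.9 ± 1.09% in saline libraries. The shares of these genes differed between the saline sets. Cacna1i averaged 14.9% in saline males 1 and 2 and 12.8% in saline males 9 to 12, and Cacna1d 9.75% and 11.6%. Scn8a held 36.7 ± 2.28% of the counts of the 5 sodium channel alpha subunits in fentanyl libraries and 36.4 ± 1.87% in saline libraries. The share of Cacna2d2 in the alpha2delta family ran over 38.1% to 57.7% in fentanyl libraries and 27.5% to 77.4% in saline libraries. These shares are descriptions without a test, and they do not compare levels between genes, since counts were not divided by transcript length.

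In males alone, 6 against 6, none of the 30 passed by edgeR, against 0.0392% of all genes, and 2 of 30 had an unadjusted p under 0.05, against 4.13% of all genes. DESeq2 and limma voom called none either. Scn9a had the smallest p, at 5.81 CPM at the lowest, 8.81 CPM at the median and 12.2 CPM at the highest in fentanyl males and 7.08, 12.3 and 19.3 CPM in saline males (log2 fold change -0.61 ± 0.23, adjusted p = 1.000 by edgeR). Cacnb3 was 154, 168 and 208 CPM in fentanyl males, against 84.4, 128 and 211 CPM in saline males (0.41 ± 0.17), and Scn4b 396, 562 and 959 CPM in fentanyl males, against 127, 387 and 854 CPM in saline males (0.58 ± 0.36). The log2 fold change of Scn4b without saline male replicate 2 was 0.94. In all 3 genes the groups overlapped, as they did for each of the 30, against 0.375% of all genes without overlap.

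The direction in males turned with the saline males used. Against numbers 9 to 12 alone the median log2 fold change over the 30 was 0.28 and none passed, while against numbers 1 and 2 alone it was -0.26. Against numbers 1 and 2, 1 of the 30 was higher and 5 were lower by edgeR, against 3.34% and 2.14% of all genes. The higher gene was Hcn2, and the lower ones were Cacna1a, Cacna1d, Cacna1e, Scn9a and Scn3b. Cacnb3 had a log2 fold change of 0.68 against numbers 9 to 12 and -0.021 against numbers 1 and 2. These fits share the fentanyl males.

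In females there were 2 libraries on each side, and the fit took its spread from both sexes. None of the 30 passed by edgeR, against 0% of all genes, and 5 had an unadjusted p under 0.05, against 14.3% of all genes. DESeq2 and limma voom called none of the 30. The fold change lay above 0 for 25 of 30, against 49.4% of all genes, with a median of 0.25. For 18 of 30 the fentanyl and saline females did not overlap, against 48.8% of all genes. Cacnb3 was 224 and 299 CPM in fentanyl females, against 138 and 140.1 CPM in saline females (log2 fold change 0.91 ± 0.30, adjusted p = 0.333 by edgeR). Scn2b was 418 and 670.3 CPM in fentanyl females, against 308 and 374 CPM in saline females (0.67 ± 0.24), and without fentanyl female replicate 2 the fold change was 0.29. Cacnb1 was 198 and 239 CPM in fentanyl females, against 126 and 132 CPM in saline females (0.76 ± 0.30). In these 3 genes both fentanyl females lay above both saline females.

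The striatal markers summed to 11755 and 17336 CPM in the fentanyl females, against 7370.3 and 7972 CPM in the saline females. The myelin markers summed to 8898 and 21062 CPM in the fentanyl females, against 28253 and 28379 CPM in the saline females. With the means of these lists as covariates the median log2 fold change over the 30 was -0.072. Like the sums, both means separated the fentanyl from the saline females without overlap. In females that fit therefore cannot tell exposure apart from the marker means. In females the exposures also differ in library number, and the effects of exposure and number cannot be told apart.

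The difference of the exposure effect between females and males was tested as an interaction. None of the 30 passed by edgeR, against 0% of all genes, nor by DESeq2 or limma voom, and 2 of 30 had an unadjusted p under 0.05, against 8.23% of all genes. Cacnb1 had the smallest p (0.73 ± 0.34 on the log2 scale, adjusted p = 0.570 by edgeR). For Scn1a the value was -0.59 ± 0.28: it was 120.2 and 153 CPM in fentanyl females, against 166 and 204 CPM in saline females, with a median of 185 CPM in fentanyl males, against 149.7 CPM in saline males. For Fgf13 it was 0.58 ± 0.30.

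Between the sexes, with exposure as a term, none of the 30 passed by edgeR, against 0.056% of all genes, nor by DESeq2 or limma voom, and 2 of 30 had an unadjusted p under 0.05, against 2.52% of all genes. The smallest p was that of Hcn3, at 17.1 ± 3.18 CPM in females and 24.5 ± 6.66 CPM in males (SD; log2 fold change -0.52 ± 0.19; 4 females and 12 males). Scn9a, at 7.08 ± 0.978 CPM in females and 10.8 ± 4.18 CPM in males, had -0.55 ± 0.26. Scn2b, at 443 ± 158 CPM in females and 362 ± 53.6 CPM in males, had 0.26 ± 0.14, and without fentanyl female replicate 2 the log2 fold change was 0.049.

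The saline males, which share exposure and sex, were split by library number because earlier results of these data had shown that the sets differ. Here channel genes passed the test, and the p-values do not allow for that choice. In numbers 1 and 2, 15 of the 30 were higher and 3 were lower than in numbers 9 to 12 by edgeR, against 8.27% and 9.66% of all genes. The 18 in all stand against 17.9% of all genes, and 23 had an unadjusted p under 0.05, against 31.6% of all genes. The median log2 fold change was 0.56 over the 30 and -0.011 over all genes. For 23 of 30 the library sets did not overlap, against 44.8% of all genes.

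All 4 calcium channel beta subunits were higher in numbers 1 and 2. Cacnb2 was 105 and 106 CPM in numbers 1 and 2, against 50.1, 63.8, 64.6 and 64.7 CPM in numbers 9 to 12 (log2 fold change 0.80 ± 0.14, adjusted p = 0.00272 by edgeR). Cacnb1 had 0.74 ± 0.17, Cacnb3 0.69 ± 0.19 and Cacnb4 0.58 ± 0.16. Cacna2d3, an alpha2delta subunit, was 172 and 260.4 CPM in numbers 1 and 2, against 59.2, 94.2, 101 and 108 CPM in numbers 9 to 12 (1.25 ± 0.26, adjusted p = 0.00633 by edgeR), and Cacna2d1 had 1.11 ± 0.33. Neither Cacnb2 nor Cacna2d3 overlapped between the sets.

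Of the pores, Cacna1e (1.00 ± 0.28), Cacna1i (0.99 ± 0.21), Cacna1h (0.64 ± 0.20) and Cacna1a (0.63 ± 0.15) were higher in numbers 1 and 2, as were Scn3a (0.67 ± 0.19) and Scn2a (0.55 ± 0.18). Scn3b, a sodium channel beta subunit, was 391 and 391 CPM in numbers 1 and 2, against 123, 171, 205 and 217 CPM in numbers 9 to 12 (1.13 ± 0.20, adjusted p = 0.00328 by edgeR). Fgf14, which is mutated in a human spinocerebellar ataxia, had 0.72 ± 0.18 and Fgf13 0.59 ± 0.16. The 3 lower genes were Hcn4, Hcn3 and Cacna2d2. Hcn4 was 1.97 and 3.23 CPM in numbers 1 and 2, against 6.80, 8.56, 8.71 and 9.78 CPM in numbers 9 to 12 (-1.71 ± 0.47, adjusted p = 0.0219 by edgeR). Hcn3 had -0.73 ± 0.23 and Cacna2d2 -0.59 ± 0.19. The value of Cacna2d2 was -0.30 without saline male replicate 2 and -0.93 without saline male replicate 1. Hcn2 (-0.75 ± 0.26, adjusted p = 0.0552 by edgeR) and Scn4b (1.24 ± 0.43, adjusted p = 0.0575 by edgeR) fell short of the threshold, as did the remaining 10 of the 30.

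**Figure D4:**
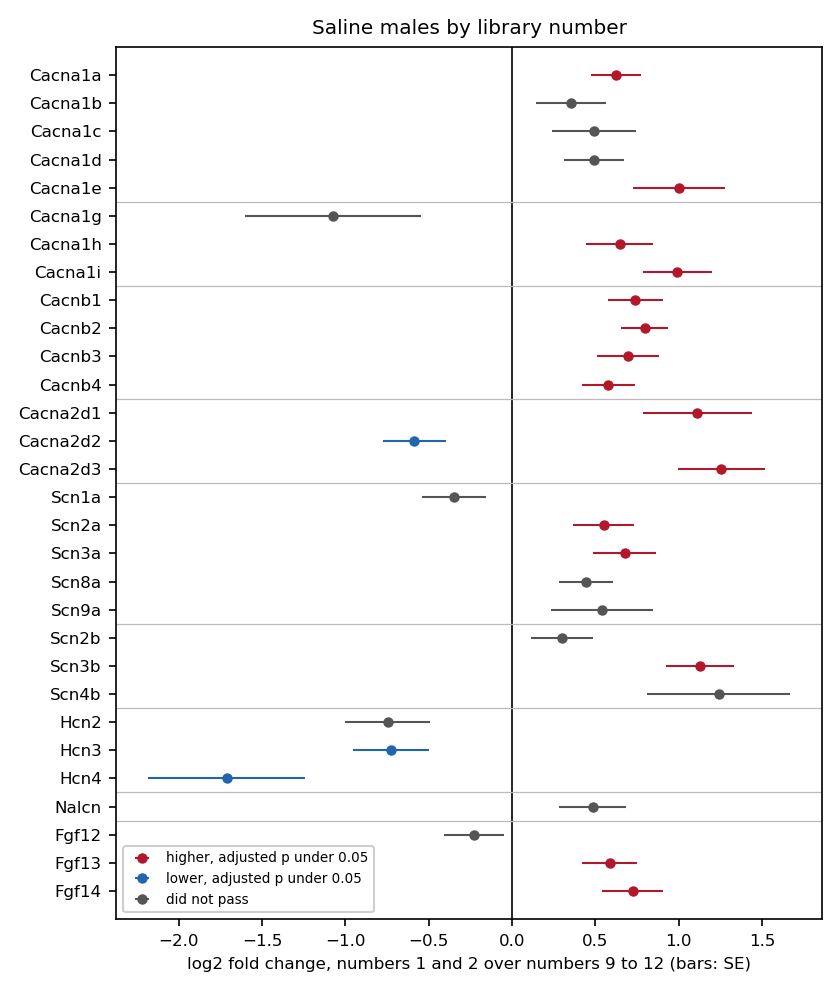
Log2 fold change of each channel gene, saline males of library numbers 1 and 2 over saline males of numbers 9 to 12 (points; bars are SE; 2 and 4 libraries). 15 genes, among them all 4 calcium channel beta subunits, were higher and Cacna2d2, Hcn3 and Hcn4 were lower in numbers 1 and 2.

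The number of calls changed with single libraries. When either library of numbers 1 and 2 is left out, a single library stands for that set, and the fit takes it to vary like the other groups. Without saline male replicate 2 none of the 30 passed by edgeR, and 128 of all genes were higher and 65 lower. Without saline male replicate 1, 7 were higher and 1 lower, against 3.58% and 3.33% of all genes. With each library left out in turn, the median log2 fold change over the 30 was 0.50 to 0.71, and the lowest values were 0.72 for Cacnb2 and 0.99 for Scn3b. Cacnb3 was 0.42 without saline male replicate 2. Without saline male replicate 6, 8 were higher and none lower, against 4.84% and 5.83% of all genes. Without saline male replicate 4, 14 were higher and 1 lower, against 7.2% and 8.28% of all genes. Without fentanyl male replicate 6, 14 were higher and 1 lower, against 7.18% and 8.72% of all genes. Limma voom called 22 higher and 5 lower, against 15.9% and 16.2% of all genes. Marker lists moved with the same libraries: 18 of 20 striatal markers were higher and 14 of 16 myelin markers were lower in numbers 1 and 2. Also lower were 7 of 13 interneuron and pallidal markers, with 1 higher, 6 of 8 of oligodendrocyte precursors, 5 of 11 of astrocytes and 4 of 11 of microglia. Of 12 pan-neuronal markers 2 were lower and none was higher. Of the 17 central amygdala markers 2 were higher and 2 lower (median log2 fold change 0.25). Cortical and basolateral markers had 2 of 11 tested lower, and thalamic and hypothalamic ones 2 of 6 tested. None of 11 endothelial and mural markers passed. With the striatal and myelin means as covariates none of the 30 passed, 1 gene of all tested did, and the median over the 30 was -0.022. The covariates themselves separated the sets. The striatal mean was 8.27 and 8.62 log2 CPM in numbers 1 and 2 and 6.84 to 7.57 log2 CPM in numbers 9 to 12. The myelin mean was 7.52 and 7.85 against 8.13 to 9.44 log2 CPM. That fit therefore cannot tell the sets apart from the marker means.

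**Figure D5:**
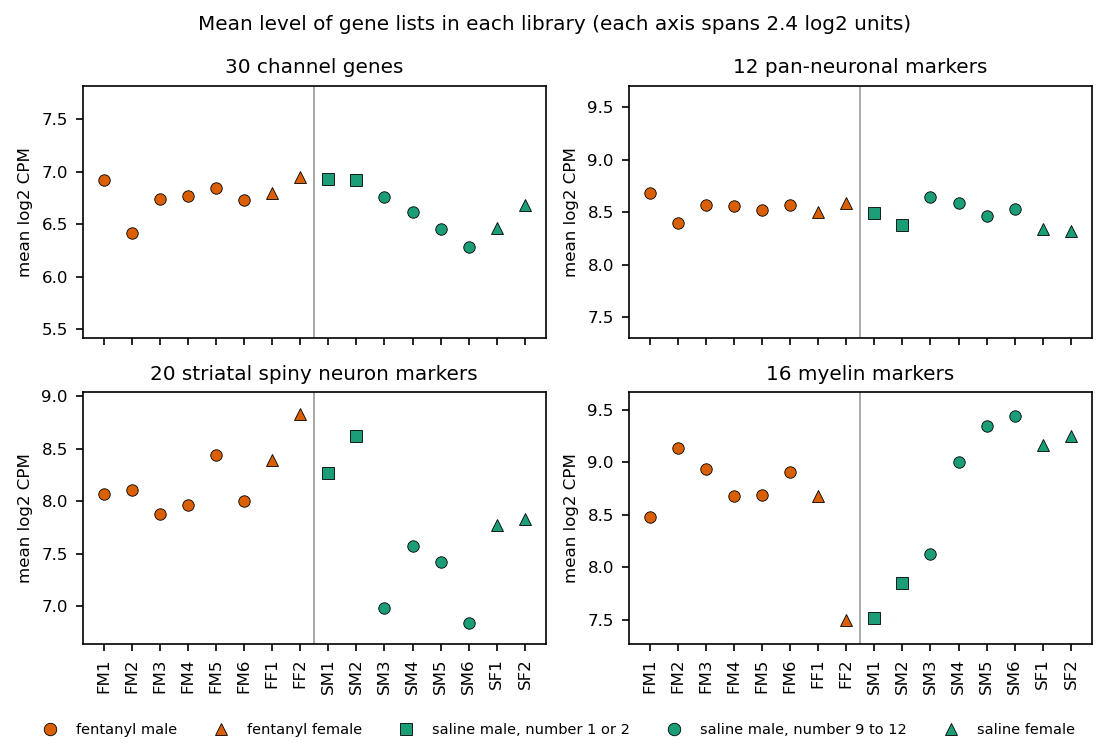
Mean log2 CPM of the 30 channel genes and of marker lists in each library, fentanyl left and saline right. Saline males 1 and 2 have a channel gene mean of 6.93 and 6.92, above those of saline males 9 to 12, at 6.29 to 6.76.

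Of a list of 43 related genes, which covers further calcium and sodium channel subunits, Nalcn partners, Rad-family GTPases that restrain calcium channels and calmodulins, 41 were tested. None passed for exposure over both sexes, with 4 of 41 at an unadjusted p under 0.05, against 7.27% of all genes, and a median log2 fold change of 0.033. Prrt2, a presynaptic protein that modulates sodium channels, averaged 169 ± 28.2 CPM in fentanyl libraries and 131 ± 25.4 CPM in saline libraries (0.36 ± 0.13). Cacng5, of the calcium channel gamma family, averaged 63.5 ± 20.8 CPM in fentanyl libraries and 41.6 ± 13.6 CPM in saline libraries (0.60 ± 0.21). Calm2, a calmodulin gene, averaged 1308 ± 221 CPM in fentanyl libraries and 1062 ± 197 CPM in saline libraries (0.30 ± 0.13; SD, n = 8 each). These 3 had the smallest p-values of the list, and their adjusted p-values by edgeR were 0.537, 0.543 and 0.644. None of the 41 passed in males, in females, for their difference or between the sexes.

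Between the saline sets 4 of the 41 were higher and 10 lower in numbers 1 and 2, against 8.27% and 9.66% of all genes, with a median of 0.046. The 4 higher genes are a share close to that of all genes. They were Rem2, a Rad-family GTPase (log2 fold change 1.21 ± 0.23), Cacng3, a transmembrane AMPA receptor regulator of the gamma family (1.00 ± 0.20), Nedd4l, a ubiquitin ligase that acts on sodium channels (0.96 ± 0.19), and Unc79, a subunit of the Nalcn complex (0.79 ± 0.16). Fam155a, another subunit of that complex, was lower, at 20.9 and 25.3 CPM in numbers 1 and 2, against 57.8, 65.0, 66.1 and 69.6 CPM in numbers 9 to 12 (-1.49 ± 0.12, adjusted p = 4.27e-05 by edgeR). Scn7a, Stac2, Rrad, Cacna2d4, Fgf11, Pex5l, Cacng7 and Cacng2 were also among the lower genes, with log2 fold changes from -1.77 for Scn7a to -0.68 for Cacng2. Pex5l encodes an auxiliary subunit of HCN channels.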

How the data were processed

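The data are 1 table with the read count of each gene in 16 rats. According to the labels' protocols, Trizol was used for extraction, followed by bead selection of poly(A) RNA and a NEBNext library kit. The submitters' processing notes name Trimmomatic, STAR, HTSeq, DESeq2 and build rn7. Versions, annotation and strand setting: not given in the sources used here. Reads of overlapping and antisense genes thus cannot be told apart, and similar stretches of sodium channel genes may share reads. The counts the authors deposited are whole numbers and not normalized; columns were matched to samples by library name. No pair of libraries agreed within sampling noise (smallest chi-square per gene 3.84 over 120 pairs).

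The tests used edgeR 4.0.16 in R 4.3.3: filterByExpr with the 4 groups (minimum 0.603 CPM), TMM factors and a robust quasi-likelihood fit, with Benjamini-Hochberg adjustment over all 17856 genes and a threshold of 0.05. Sex was a term in the fit of exposure over all libraries. Contrasts in males, in females and of their difference came from a fit of the 4 groups, and the saline male sets from a fit with those males split by library number. An SE is the log2 fold change over the root of its F statistic. CPM use TMM factors, except those of single cell type markers, which use total counts. List means are log2 CPM with a prior count of 2. The steps were tested on simulated counts, drawn around a common mean per gene with changes added to chosen genes. These counts lacked the broad differences between the saline sets. No bound on recovery was set for the saline sets or for the smaller changes simulated. The 30 genes, the related genes, the marker lists and the split of the saline males were chosen with earlier results of these data known. Values were given in full for the 8 genes with the smallest p for exposure over both sexes, the 3 with the smallest p in each other comparison, and genes past the threshold, except 1 related gene that is not reported here. Promoters and gene order are from RefSeq tables of GRCr8, a newer build. Alternatives were RLE factors, no filter, DESeq2 1.42.0, limma 3.58.1 voom with quality weights, no sex term, surrogate variables from sva 3.50.0, marker means as covariates, a block for the replicate number, saline male subsets and each library left out.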

Additional observations from a re-analysis of the deposited data

Results flagged for a closer look

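In 4 of 60 groups screened (30 channel genes in 6 fentanyl and in 6 saline males), 1 library lay apart from the other 5 of its group by more than 0.625 of the range. Chance gives about 1 in 20 such groups if values are normally distributed and groups independent. The 30 genes were measured in the same libraries, so these groups are not independent, and the rate is only a rough guide. Fentanyl male replicate 2 was the lowest of its group for 3 genes. Cacna1c, an L-type pore, was 29.6 CPM there and 56.9 to 67.6 CPM in the other fentanyl males. Scn1a was 126 CPM, against 181 to 190.3 CPM in the others, and Scn8a 209 CPM, against 281 to 323 CPM. Cacna1g was 71.3 CPM in saline male replicate 3 and 12.4 to 29.8 CPM in the other saline males.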

How the results depend on the processing

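Fentanyl and saline males of the same replicate number, which is mostly not the library number, had deviations that correlated at -0.07 to 0.21. Both female pairs gave -0.17, a value that 2 libraries per group share by construction. Unmatched pairs were not compared, so this check cannot exclude pairing. With a block for the replicate number, 5 higher and 2 lower of all genes passed over both sexes and 3 higher in males. No channel gene did, and crossing the females' replicate numbers gave no call in females. DESeq2 called 52 higher and 35 lower of all genes over both sexes, 28 higher and 15 lower in males, 10 higher and 10 lower in females, 3 higher and 1 lower for the difference and 5 higher between the sexes. Limma voom called 680 higher and 351 lower of all genes over both sexes with 9 channel genes higher, 51 higher and 36 lower in males, 6 higher between the sexes and 2838 higher and 2892 lower between the saline sets with 5 channel genes lower. Surrogate variables gave 246 higher and 108 lower of all genes, 1 channel gene higher, and Hcn4 at 0.019. Without saline males 1 and 2 there were 752 higher and 474 lower of all genes over both sexes with 8 channel genes higher and 1 lower, 57 higher and 14 lower in males (median of the 30, 0.28) and 1 higher and 13 lower in females, and the median for the difference was 0.12. Without saline males 9 to 12 there were 1 higher and 3 lower over both sexes with Hcn4 at 0.17, and 582 higher and 373 lower in males with 1 channel gene higher and 5 lower, a median of -0.26, Cacnb3 at -0.021 and Scn4b at -0.13. With marker covariates 3 higher and 2 lower of all genes passed over both sexes, with Scn4b at -0.12, Hcn3 at 0.087 and Hcn4 at 0.26; Scn4b in males was -0.17, 1 gene was higher in females, and the medians were -0.072 in females and -0.12 for the difference. Between the saline sets the covariates left 1 higher and 0 lower of all genes, 0 channel genes higher and 0 lower, and a median of -0.022; log2 fold changes turned for Cacna1h -0.28, Cacna1i -0.18, Cacnb1 -0.023, Cacnb2 -0.020, Cacnb3 -0.31, Cacna2d3 -0.20, Scn8a -0.029, Scn2b -0.70, Scn3b -0.16, Scn4b -0.76 and Fgf12 0.27. Fgf12 was -0.52 without saline male replicate 1 and 0.016 without saline male replicate 2. Leaving out each library in turn gave 8 to 21 higher and 1 to 8 lower of all genes over both sexes (channel genes higher 0 to 1), 4 to 8 higher and 0 to 2 lower in males, 0 to 5 higher in females, and 0 to 4 higher and 0 to 1 lower for the difference. Between the saline sets it gave 128 to 2062 higher and 65 to 2236 lower of all genes, and 0 to 19 higher and 0 to 3 lower channel genes. The causes were not tested. There were 2 female libraries per exposure, and Hcn4 had the fewest reads of the 30.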
